A study of Homo sapiens with 8 samples.

Results

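Genes of splicing factors and of the proteins of small nuclear ribonucleoproteins (snRNPs) were followed in KM-H2, a cell line derived from Hodgkin lymphoma. Members were taken by name: every probe of the deposited expression values whose gene symbol starts with SRSF, SFRS, HNRNP, HNRP, SF3A, SF3B, SNRP or PRPF. This gave 124 probes of 64 genes out of 16065 deposited probes. They fall into 19 probes of 11 SR genes, 59 probes of 22 hnRNP genes, 15 probes of 9 SF3 genes, 18 probes of 12 SNRP genes and 13 probes of 10 PRPF genes. On the whole array of 41000 probes 130 matched the names, and the 6 not among the deposited values were left out of all counts.

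KM-H2 cells had been transduced with the empty retroviral vector pMSCV-PIG (EV) or with the same vector carrying a miR-155 sponge (miR-155-sp), whose transcript holds binding sites for miR-155, and GFP+ cells had been sorted. From each population total RNA (T) and RNA pulled down with an antibody against Argonaute 2 (the Ago2-IP or IP fraction) were hybridized to 2-color human whole genome arrays. Each of the 4 RNA samples was labelled once with Cy3 and once with Cy5, which makes 8 channels on 4 arrays. There was thus 1 RNA sample per group and the labellings are technical, so no test was possible and both dye orientations are given instead. No array of an IgG control was used here, and the level of the sponge transcript was not analysed here.

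Splicing removes introns in a particle, the spliceosome, that is built from snRNPs, each a small nuclear RNA with a ring of Sm proteins and particle-specific proteins. SR proteins bind exons and mostly promote their inclusion, whereas hnRNP proteins coat nascent transcripts and often oppose inclusion, and both also act in export, stability and translation of mRNA. Ago2 is the protein that carries miRNAs to mRNAs with matching sites, so an mRNA with many loaded sites is expected to be over-represented in an Ago2-IP.

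The miRNA that the sponge was built to bind is shown because the comparison of the populations turns on it. Its mature sequence is given from RefSeq (GRCh38.p14), 5′ to 3′, with the seed (bases 2 to 8), the stretch that pairs with target mRNAs, in capitals.
hsa-miR-155-5p: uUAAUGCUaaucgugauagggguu

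Signals of the splicing genes were clear of background nearly throughout: in all 8 channels 119 of 124 probes were well above background, against 13435 of 16060 probes overall. The 5 exceptions, 1 probe each of PRPF38B, PRPF40B, SF3B1 and HNRNPU with 7 channels and 1 of SNRPC with 6, enter all counts and medians. Averaged over the labellings, normalized log2 signals of the members ranged from 6.83 to 16.53 in EV T. Of all gene spots, 58.9 to 61.9% were well above background in the Cy3 channels and 38.8 to 43.4% in the Cy5 channels, and none was saturated. Of the Hodgkin lymphoma marker genes TNFRSF8, CCL17, IRF4, TRAF1, FSCN1, MIR155HG, ID2 and BATF3 were well above background in all 8 channels and CCL22 in 0, while the B cell genes CD79B, CD22 and PAX5 were in 0 channels and MS4A1 in 1. Among markers of other cells, CD14 was well above background in 6 channels, 1 of the probes of CD3E in 4, and LYZ in 0.

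Most splicing gene mRNAs were neither enriched in nor depleted from the Ago2-IP fraction by 2-fold. The IP/T ratio, here the ratio of the normalized signals of both fractions, reached at least 2 in the EV population for 2 of the 124 probes (SRSF8 and HNRNPU), or 1.61%, against 15.1% of all 16060 probes. It was 0.5 or less for 5 probes (PRPF19, HNRNPAB, HNRNPU, HNRNPA0 and HNRNPD), or 4.03%, against 12.9% of all probes. The ratios were also narrowly spread: the SD over probes of log2 IP/T was 0.527 for the members and 1.12 for all probes. Restricted to probes well above background in all 8 channels, the SD was 0.516 for the members and 1.01 for all probes. Without that restriction it was 0.631 for proteasome subunit genes and 0.730 for cytosolic ribosomal protein genes. It was 0.991 for translation factor genes and 1.74 for numbered zinc finger genes, so a narrow spread was not particular to splicing genes. The members were also brighter, with a median log2 signal in EV T of 11.44 against 9.71 for all probes. With the sponge the ratio was at least 2 for 2 members (HNRNPU and SF3B3), against 16.0% of all probes, and 0.5 or less for 6 members, against 13.9% of all probes. It was below 1 in both orientations with the sponge for 65 members, against 52.8% of all probes.

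The middle of the distribution lay at the middle of all probes. The median log2 IP/T of the members was -0.27 in the EV population and -0.22 with the sponge, beside -0.25 and -0.26 for all probes. In all 4 arrays the ratio was below 1 for 61 of 124 members, against 47.7% of all probes, and above 1 for 27 members, against 29.2% of all probes. These ratios are relative to all probes of the array and give no absolute amount of RNA bound to Ago2.

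**Figure D1:**
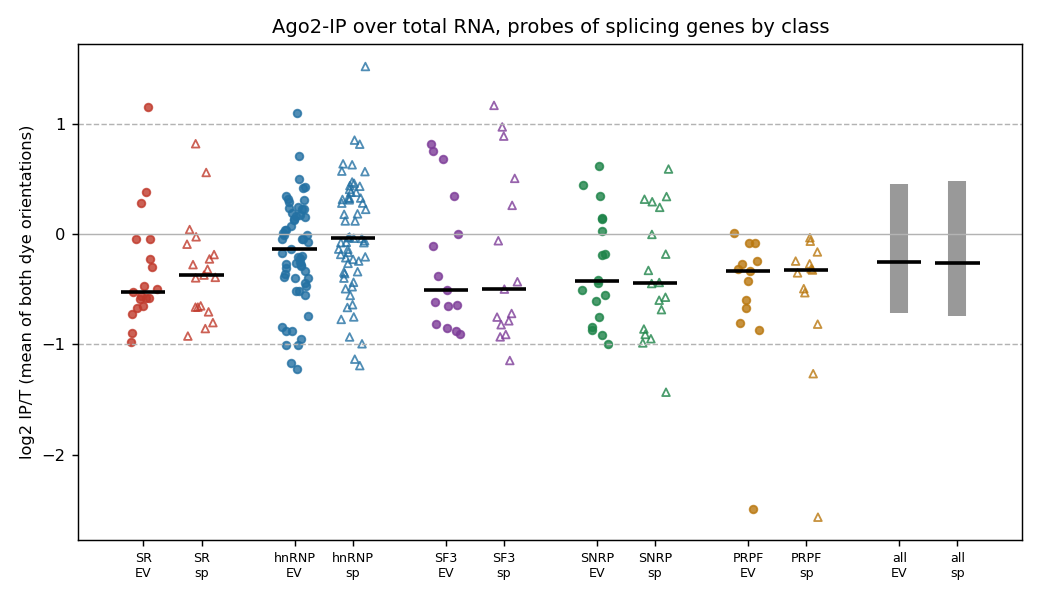
Log2 IP/T of every member probe (mean of both dye orientations) in EV cells (filled circles) and miR-155-sp cells (sp, open triangles) by gene class, with black lines at class medians. Grey bars span the middle 50% of all 16060 probes, dashed lines mark ratios of 2 and 0.5, and most members lie between them. PRPF19 is the lowest point, at a log2 IP/T of -2.49 in the EV population.

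SR and hnRNP probes together stood slightly above the SNRP probes in the IP fraction. Of these 2 classes only hnRNP probes did so in the EV population, and the low SNRP median rested on part of that class. The 10 Sm ring probes had a median log2 IP/T of -0.07 in EV cells, which is not below that of SR and hnRNP probes. By orientation it was -0.31 (IP in Cy5) and 0.15. The 8 probes of U1 and U2 proteins were at -0.53. In the EV population the median log2 IP/T was -0.22 over the 78 SR and hnRNP probes and -0.43 over the 18 SNRP probes, a difference of 0.21. With IP in Cy5 the difference was 0.32, and with IP in Cy3 it was 0.18. Comparing within Cy3 alone and within Cy5 alone it was 0.091 and 0.048. Over gene means in place of probes it was 0.056, and without the 14 probes of HNRNPA1 and its copy HNRNPA1L2 it was 0.14. The sign of this difference held in these settings, but its size depended on them.

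With the sponge the same difference was 0.33, and it ranged from 0.24 to 0.43 over all alternatives run. The classes differed in brightness: median log2 signals in EV T were 9.93 for SR, 11.44 for hnRNP, 11.90 for SF3, 13.28 for SNRP and 10.60 for PRPF probes. Whether brightness bears on the class differences was not tested. Split by class, the hnRNP median log2 IP/T of -0.13 was 0.29 above the SNRP median in the EV population, and the SR median of -0.52 was 0.10 below it. With the sponge hnRNP probes had a median of -0.04 and SR probes a median of -0.37, which was 0.41 and 0.07 above the SNRP probes. SF3 probes had medians of -0.51 and -0.50 in EV and miR-155-sp cells, and PRPF probes -0.33 and -0.32. For comparison, cytosolic ribosomal protein genes had a median of -0.38 in the EV population, proteasome subunit genes -0.39, translation factor genes -0.34 and numbered zinc finger genes 0.46.

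SR genes were mostly below the total fraction: 14 of 19 probes had an IP/T below 1 in both orientations in the EV population, against 52.6% of all probes, and 3 were above 1 in both, against 32.8%. The lowest was a probe of SRSF1, the founding SR protein, which binds exonic enhancers and also promotes translation. Its log2 signals were 11.82 (Cy3) and 12.00 (Cy5) in EV T, 11.13 and 10.74 in EV IP, 11.95 and 11.88 in miR-155-sp T and 11.13 and 11.37 in miR-155-sp IP. Every IP channel was below every T channel, with an IP/T of 0.509 in the EV population (0.474 in the orientation with IP in Cy5 and 0.547 in the other) and 0.632 with the sponge. The other probe of SRSF1 was near 1, at 0.972 and 0.940.

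SRSF4, a larger SR protein, had the next lowest probe. In log2 units its signals were 12.78 and 12.56 in EV T, 11.90 and 11.65 in EV IP, 12.73 and 12.59 in miR-155-sp T and 11.81 and 11.65 in miR-155-sp IP. The fractions were apart in both populations, at ratios of 0.538 and 0.527, and the second probe of SRSF4 was at 0.664 and 0.803. All 4 probes of SRSF10, an SR-like protein that represses splicing when dephosphorylated, were below 1 in the EV population, between 0.604 and 0.812. SRSF6, an SR protein that acts on exon choice, was the SR gene with both of its probes above 1 in the EV population, at 1.30 and 1.22. These probes of SRSF6 were at 1.48 and 1.03 with the sponge.

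hnRNP genes lay on both sides of 1: in the EV population 25 of 59 probes, or 42.4%, were below 1 in both orientations, against 52.6% of all probes, and 16, or 27.1%, were above 1 in both, against 32.8%. The lowest was HNRNPAB, an hnRNP A/B family member that binds RNA in the nucleus and in transport granules. Its only probe gave log2 signals of 11.68 and 11.11 in EV T, 10.10 and 10.25 in EV IP, 11.75 and 11.40 in miR-155-sp T and 10.53 and 10.22 in miR-155-sp IP. The fractions did not overlap in either population. The IP/T of HNRNPAB was 0.430 in the EV population, 0.372 in the orientation with IP in Cy5 and 0.496 in the other, and 0.438 with the sponge. After the normexp background correction with loess normalization it was 0.557 and 0.575.

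HNRNPD, known as AUF1, binds AU-rich elements of short-lived mRNAs. Its lowest probe had an IP/T of 0.498 in the EV population and 0.456 with the sponge, with log2 signals of 9.62 and 9.53 in EV T, 8.78 and 8.36 in EV IP, 9.87 and 9.68 in miR-155-sp T and 8.90 and 8.38 in miR-155-sp IP. HNRNPA0, which also binds AU-rich elements, had both probes low in the EV population, at 0.518 and 0.4996. With the normexp correction and loess both genes stayed below 1, HNRNPA0 at a mean of 0.740.

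On the high side, no hnRNP probe that was well above background in all 8 channels reached 2 in the EV population. The highest was a probe of HNRNPA1, which binds splicing silencers and shuttles to the cytoplasm. Signals on the log2 scale were 11.59 and 11.72 in EV T, 12.48 and 12.26 in EV IP, 11.93 and 11.76 in miR-155-sp T and 12.58 and 12.38 in miR-155-sp IP. The IP channels were the higher ones in both populations, with ratios of 1.64 and 1.55. The 4 probes of HNRNPA1 averaged a log2 IP/T of 0.26 in the EV population, and the 10 probes named HNRNPA1L2 averaged -0.07. HNRNPA1L2 is a near copy of HNRNPA1 and HNRNPCL1 one of HNRNPC, so which transcript these probes read is uncertain. The other hnRNP probes named for their height were 1 of HNRNPUL1, a relative of HNRNPU, at 1.42, and 1 of HNRNPA1L2 at 1.35.

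Probes of the same gene agreed within about 0.34 on the log2 scale, the median range of log2 IP/T in the EV population over the 31 genes with several probes. Another 33 genes had a single probe. In 4 genes, SRSF8, HNRNPU, HNRNPA1L2 and HNRNPUL1, the probes were more than 1 apart on that scale and lay on both sides of 0. SRSF8, a relative of SRSF2, had 1 probe with log2 signals of 8.77 and 8.07 in EV T, 9.62 and 9.54 in EV IP, 8.74 and 8.75 in miR-155-sp T and 9.84 and 9.29 in miR-155-sp IP. For this probe IP exceeded T in every channel, at a ratio of 2.23 in the EV population (1.71 in the orientation with IP in Cy5 and 2.92 in the other) and 1.77 with the sponge. The other SRSF8 probes were at 0.711 and 0.628 in the EV population.

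HNRNPU, or scaffold attachment factor A, binds nuclear RNA and chromatin. Its highest probe, well above background in 7 channels, had log2 signals of 6.88 and 6.78 in EV T, 8.10 and 7.76 in EV IP, 6.71 and 6.84 in miR-155-sp T and 8.41 and 8.19 in miR-155-sp IP. Its ratio was 2.14 in the EV population and 2.88 with the sponge, whereas the other HNRNPU probes were at 0.886, 0.840 and 0.445 in the EV population. With the normexp correction neither gene had a probe at 2 in the EV population: log2 IP/T was 0.63 for the SRSF8 probe and 0.35 for the HNRNPU probe with loess. Averaged over probes, no splicing gene reached 2 in the EV population. What sets probes of a gene apart, such as the transcript form they read, was not tested.

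**Figure D2:**
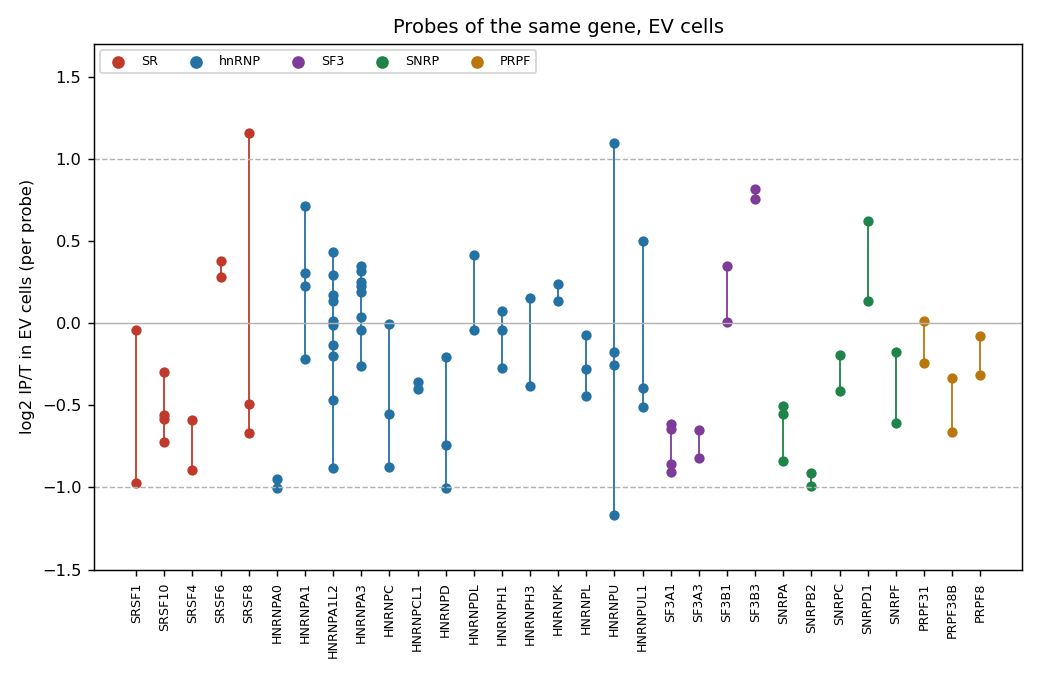
Log2 IP/T in the EV population of each probe (dots, joined within a gene by a line) for the 31 genes with several probes, colored by class, with dashed lines at ratios of 2 and 0.5. Most lines are short, with a median range of 0.34, and 10 of the genes have probes on both sides of 0, HNRNPU and SRSF8 with the longest lines.

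Among the snRNP proteins, subunits of the Sm ring lay on both sides of 1. SNRPD1, SNRPG and SNRPE, 3 subunits of the ring, had the highest ratios of the class. SNRPD1 had log2 signals of 14.70 and 14.69 in EV T, 15.39 and 15.24 in EV IP, 14.71 and 14.51 in miR-155-sp T and 15.21 and 15.19 in miR-155-sp IP. Its ratio was 1.54 in the EV population and 1.51 with the sponge, and its second probe was at 1.099 and 1.25. SNRPG was at 1.36 and 1.19, the latter close to 1 under normexp with quantile normalization (log2 IP/T of -0.0032), and SNRPE at 1.28 and 1.23.

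SNRPD2, which pairs with SNRPD1 in the same ring, was on the other side. Log2 signals were 14.84 and 14.86 in EV T, 14.11 and 13.85 in EV IP, 14.75 and 14.85 in miR-155-sp T and 13.87 and 14.005 in miR-155-sp IP. The ratios were 0.548 and 0.551, with no overlap of the fractions. SNRPB, another ring subunit, was also low, at 0.594 and 0.518. Over the 10 probes of the 8 ring genes the median log2 IP/T was -0.07 in the EV population, and over the 8 probes of SNRPA, SNRPA1, SNRPB2 and SNRPC, proteins of the U1 and U2 particles, it was -0.53. SNRPB2, a U2 protein that binds the snRNA, had the lowest probes of the class, at 0.502 and 0.532 in the EV population and 0.505 and 0.623 with the sponge.

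The SF3 genes encode the SF3A and SF3B complexes, which hold the U2 snRNP at the branch point, and the medians over probes of both complexes lay on different sides of 0. Over genes this was less clear, since SF3B2, SF3B5 and SF3B6, 3 of the 6 SF3B genes, averaged below 1. The 7 SF3A probes had a median log2 IP/T of -0.65 in the EV population and the 8 SF3B probes one of 0.18. With the sponge the medians were -0.79 and 0.39. By orientation the SF3B median was 0.05 (IP in Cy5) and 0.25 in the EV population, and 0.03 and 0.67 with the sponge. In the EV population it lay midway between the probes of SF3B1, at 0.35 (detected in 7 channels) and 0.0047. All 4 probes of SF3A1 were below 1 in both populations, at 0.534 to 0.654 in the EV population and 0.452 to 0.594 with the sponge. SF3A1 averaged 0.764 and 0.731 with the normexp correction and loess, and again no probe was above 1 in the EV population.

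SF3B3, a large scaffold subunit of SF3B, had the highest gene mean of IP/T, 1.72 in the EV population and 2.10 with the sponge. The first probe had log2 signals of 12.16 and 12.52 in EV T, 13.16 and 13.16 in EV IP, 12.26 and 12.505 in miR-155-sp T and 13.38 and 13.73 in miR-155-sp IP. The second had 8.51 and 8.78 in EV T, 9.26 and 9.54 in EV IP, 8.78 and 8.98 in miR-155-sp T and 9.71 and 10.01 in miR-155-sp IP. Both probes showed IP above T without overlap, at ratios of 1.76 and 1.69 in the EV population and 2.25 and 1.97 with the sponge. SF3B4, which contacts RNA near the branch point, was at 1.61 and 1.42. Not all SF3B genes were high: SF3B5, the smallest of the subunits named here, was at 0.543 in the EV population and 0.532 with the sponge.

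PRPF genes encode proteins of the U4/U6.U5 tri-snRNP and of associated complexes. Of their 13 probes 11 were below 1 in both orientations in the EV population, against 52.6% of all probes, and none was above 1 in both, against 32.8%. PRPF19, the ubiquitin ligase at the core of the Prp19 complex, had the lowest ratio of all members, measured with 1 probe. The log2 signals were 10.27 and 10.11 in EV T, 7.69 and 7.70 in EV IP, 10.61 and 10.32 in miR-155-sp T and 7.87 and 7.93 in miR-155-sp IP. The fractions were far apart in every array, with an IP/T of 0.178 in the EV population (0.169 in the orientation with IP in Cy5 and 0.187 in the other) and 0.169 with the sponge. With the normexp correction the ratios were 0.454 and 0.486 after loess and 0.365 and 0.372 after quantile normalization, so PRPF19 stayed below 0.5 while the size depended on the background correction.

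Other PRPF genes were closer to 1. PRPF6, which bridges U5 and U4/U6, was at 0.572 in the EV population and 0.693 with the sponge, and PRPF38A, a factor of spliceosome activation, at 0.660 and 0.568. The highest probes belonged to PRPF31 and PRPF3, proteins of the U4/U6 particle, and to PRPF8, the core protein of U5, at 1.01, 0.949 and 0.949 in the EV population. PRPF40B, with 7 channels well above background, was at 0.547 and 0.416.

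**Figure D3:**
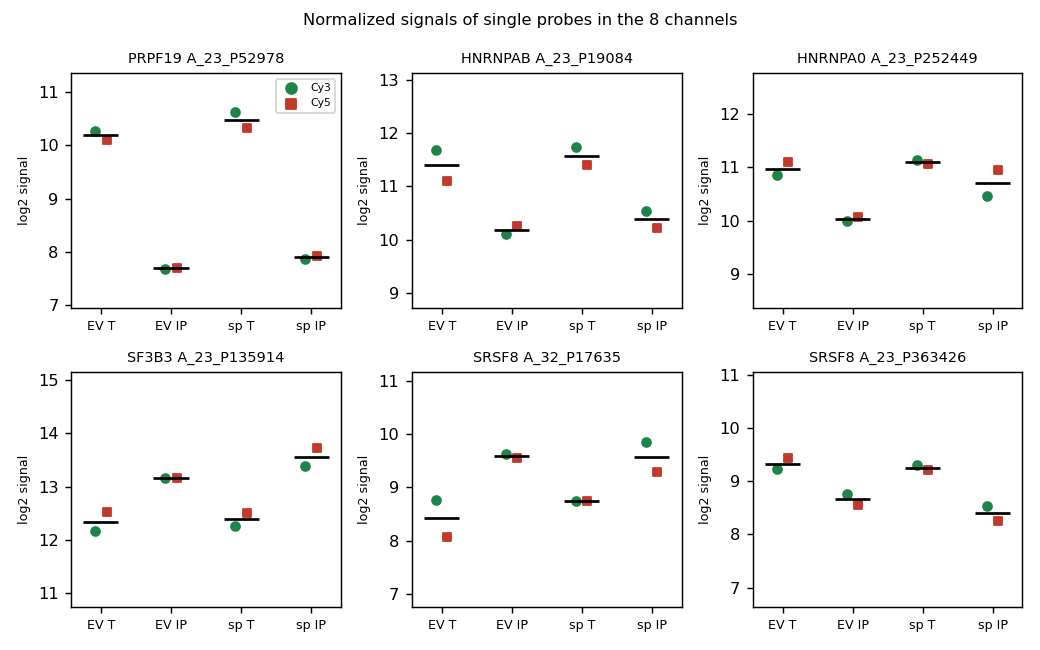
Normalized log2 signals of 6 probes in the 4 RNA samples, with Cy3 labellings as green circles, Cy5 labellings as red squares and black lines at their means. PRPF19 and HNRNPAB lie lower in both IP samples than in both T samples, SF3B3 lies higher, and the 2 SRSF8 probes drawn run opposite ways.

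The sponge comparison asked whether these mRNAs were less abundant in the Ago2-IP of cells with the miR-155 sponge, whose hold on miR-155 was not measured here. The change is the log2 IP/T with the sponge minus that in the EV population. Changes of at least 1.5-fold were rare: 1 member (SRSF10) was higher, or 0.806%, against 2.90% of all probes, and 1 (SNRPC) was lower, again 0.806%, against 2.14%. With the normexp correction neither probe reached 1.5-fold. The log2 changes were then 0.34 (loess) and 0.41 (quantile normalization) for SRSF10, and -0.14 and -0.21 for SNRPC. Median changes were 0.06 for the members and -0.0008 for all probes. By class they were 0.11 for hnRNP, -0.05 for SR, 0.04 for SF3, -0.01 for SNRP and -0.06 for PRPF probes, and the SNRP median turned to 0.06 when the channels were brought to a common median only, which moved the median of all probes by 0.06 as well. The SF3 median was -0.11 in the orientation with IP in Cy5 and 0.07 in the other, and the SR median was 0.0066 and -0.01, so neither class had a settled direction.

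hnRNP probes had more small increases than decreases of IP/T. IP/T was higher with the sponge in both orientations for 35 of 59 hnRNP probes, or 59.3%, against 31.1% of all probes, and lower in both for 7, or 11.9%, against 30.4%. SR probes gave 5 and 6, SNRP probes 5 and 6, SF3 probes 6 and 3, and PRPF probes 3 and 6. Over the normalizations and background corrections the hnRNP count was between 28 and 39, without HNRNPA3 it was 27 of 51 probes, and over gene means it was 14 of 22 genes. The share of all probes under these normalizations and corrections was not counted, nor was that of all genes. The count of 39 came with a common median, which moved the median change of all probes by 0.06. The labellings weighed unequally in it. Within Cy3 the hnRNP median change was 0.05 and within Cy5 it was 0.23. Counted over labellings in place of orientations, 27 hnRNP probes, or 45.8%, were higher in both, against 27.9% of all probes, and 6 were lower in both, against 28.4%.

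HNRNPA3, an A/B family protein that binds RNA like HNRNPA1, contributed 8 of these probes: all of its probes were higher with the sponge in both orientations, by 0.06 to 0.51 on the log2 scale and by 0.27 on average. The probe with the largest change had log2 signals of 8.90 and 8.98 in EV T, 9.38 and 9.19 in EV IP, 8.56 and 8.64 in miR-155-sp T and 9.49 and 9.42 in miR-155-sp IP. Its ratio was 1.27 in the EV population and 1.81 with the sponge, with T lower and IP slightly higher in the sponge population. Within Cy5 all 8 probes were higher and within Cy3 5 were, and 7 were under each normexp alternative. Averaged over probes, HNRNPA3 was 0.12 lower in T and 0.15 higher in IP, and its IP/T was 1.097 in the EV population and 1.32 with the sponge. Probes of 1 gene share their RNA, so 8 probes are not 8 observations.

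HNRNPA0 and SF3B3 also had both of their probes higher in both orientations, SF3B3 by 0.35 and 0.22. The HNRNPA0 probe with the larger change had log2 signals of 10.86 and 11.09 in EV T, 9.99 and 10.07 in EV IP, 11.14 and 11.06 in miR-155-sp T and 10.45 and 10.96 in miR-155-sp IP. T of this probe was 0.13 higher with the sponge, through Cy3 alone, and both IP labellings were higher. The ratio was 0.518 in the EV population and 0.759 with the sponge. The change was 0.55 for this probe and 0.36 for the second. Within Cy3 these changes were 0.18 and 0.11, and within Cy5 they were 0.92 and 0.61. With either normexp alternative both probes were again higher, by 0.24 on average.

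Among probes detected in all channels, the other large increases were 1 probe each of SRSF10 (0.70), HNRNPA3 (0.51), HNRNPH3 (0.48) and HNRNPUL2 (0.44). The SRSF10 probe had log2 signals of 9.31 and 9.41 in EV T, 8.64 and 8.63 in EV IP, 9.20 and 8.97 in miR-155-sp T and 8.75 and 9.38 in miR-155-sp IP. Its ratio was 0.604 in the EV population and 0.985 with the sponge, but most of this came from Cy5, where the change was 1.19 against 0.22 in Cy3. The other 3 SRSF10 probes had changes of -0.24, -0.09 and 0.19, so the gene had no common direction. HNRNPH3, which binds G-rich RNA, had log2 signals of 11.31 and 11.43 in EV T, 11.55 and 11.50 in EV IP, 10.94 and 10.87 in miR-155-sp T and 11.47 and 11.62 in miR-155-sp IP, so for this probe it was T that was lower with the sponge. A probe of SF3B1 detected in 7 channels had a change of 0.54, but the orientations gave -0.24 (IP in Cy5) and 1.33.

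Of the 119 members detected in all channels, IP/T was lower in both orientations for 27, against 30.7% of all such probes. It was higher for 53, against 31.7%. Decreases were fewer than increases among hnRNP and SF3 probes, but not among SR, SNRP and PRPF probes. Leaving out the probes with undetected channels, the largest decreases were those of SF3A1 (-0.50), SNRPN (-0.47), SRSF8 (-0.33), SF3A3 (-0.28) and HNRNPL (-0.27). T was higher with the sponge for each of these probes, by 0.57, 0.18, 0.32, 0.36 and 0.26 in the same order. Except for SNRPN, this rise of T was about as large as the fall of IP/T or larger. For SNRPN the IP fraction changed by -0.28. SNRPN, an Sm protein of the imprinted Prader-Willi region, was lower with the sponge in both dyes. Its log2 signals were 10.10 and 9.65 in EV T, 9.42 and 9.45 in EV IP, 10.14 and 9.97 in miR-155-sp T and 9.15 and 9.15 in miR-155-sp IP. The ratio was 0.737 in the EV population and 0.533 with the sponge, and the change was -0.31 with normexp and loess. HNRNPL, which binds CA repeats, went from 0.953 to 0.788 with changes of -0.21 in Cy3 and -0.33 in Cy5, and its other probes had changes of 0.07 and 0.31. For the SF3A1 probe the change was -1.11 in Cy5 but 0.10 in Cy3, and 2 of the 4 SF3A1 probes were higher. A probe of SNRPC, well above background in 6 channels, had a change of -1.02, with its other probe at 0.01. T of the first probe was 1.12 higher with the sponge, and its change was -0.14 with normexp and loess.

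**Figure D4:**
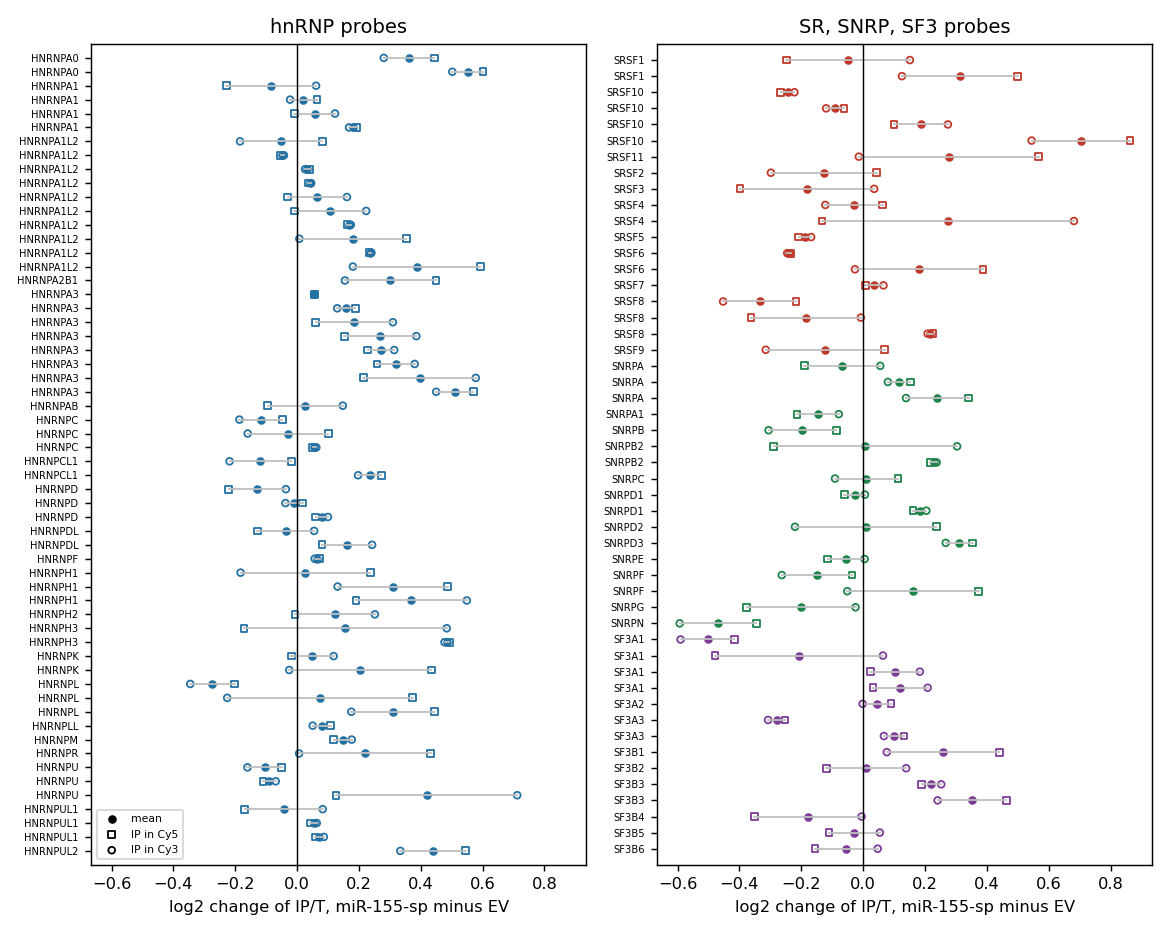
Change of log2 IP/T with the sponge (miR-155-sp minus EV) for hnRNP probes (left) and SR, SNRP and SF3 probes (right) that were well above background in all 8 channels. Filled circles are means, squares the orientation with IP in Cy5 and open circles that with IP in Cy3. The 8 HNRNPA3 and both HNRNPA0 probes lie right of 0 in both orientations, and PRPF probes are not drawn.

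The total RNA of the splicing genes was close between the populations. At least 1.5-fold higher totals with the sponge were found for 2 members (SRSF6 and SNRPC), against 0.573% of all probes, and at least 1.5-fold lower totals for 0 members, against 1.81%. In the IP fraction 3 members (SRSF6, HNRNPA0 and HNRNPUL2) were at least 1.5-fold higher with the sponge, against 1.41% of all probes, and 0 were lower by as much, against 1.11%. Median differences of T were -0.01 for SR and -0.01 for hnRNP probes on the log2 scale. SRSF6 had both probes higher in T: the first had 7.90 and 7.89 in EV T against 8.34 and 8.37 in miR-155-sp T, and the second 7.09 and 7.51 against 7.81 and 8.04. The populations did not overlap for either probe, and the differences were 0.46 and 0.63, or 0.21 and 0.29 with normexp and loess. In bulk RNA of a cell line, a change in all cells and one in part of the cells cannot be told apart.

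The other large increases of T were those of the SF3A1 probe (0.57) and of a probe of HNRNPCL1 (0.52). Between dyes they differed in size, with 0.23 in Cy3 and 0.92 in Cy5 for SF3A1. Among probes detected in all channels, the largest decreases of T belonged to 2 probes of HNRNPA3 (-0.49 and -0.34) and to HNRNPH3 (-0.47). All these were lower in both labellings, and the mean for HNRNPA3 over its 8 probes was -0.12. The SF3B1 probe detected in 7 channels had a T difference of -0.40, with -0.02 in Cy3 and -0.77 in Cy5.

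Splicing genes outside these families, taken from lists of 96 names of which 85 were measured with 120 probes, held more probes past 2-fold. IP/T in the EV population was at least 2 for 13 of the 120, against 15.1% of all probes, and 0.5 or less for 11, against 12.9%. RNA-binding regulators of alternative splicing, with 31 probes, accounted for 7 of the 13. Of the 31 probes 3 were at 0.5 or less and 16 were below 1 in both orientations, against 52.6% of all probes. Their median log2 IP/T was -0.29. Among the 7, chosen after their values were seen, were 1 probe of MBNL1, which binds CUG repeats, at a log2 IP/T of 2.64, CELF1, which binds GU-rich RNA, at 2.71, RBFOX2 at 1.81 and TIA1 at 1.57. The SR-related gene SCAF11 had both probes high, at 1.55 and 1.56, and RBM25, a U1-associated factor, was at 1.53. The Prp19 complex list, to which PRPF19 belongs by function, had all 9 probes below 1 in all 4 arrays, against 47.7% of all probes, and a median of -0.74, with BUD31, CWC15 and ISY1 between -1.34 and -1.31. Of 10 probes of other tri-snRNP proteins 9 were below 1 in both orientations in the EV population, against 52.6% of all probes, and 10 with the sponge, against 52.8%, with medians of -0.69 in EV and -0.80 with the sponge.

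With the sponge these lists held no surplus of higher probes. IP/T was higher in both orientations for 28 of the 120 probes, against 31.1% of all probes, and lower in both for 34, against 30.4%. Among genes of Sm ring assembly 7 of 14 probes were lower in both orientations and 1 was higher, with a median change of -0.15. LSM genes, whose products form rings like the Sm proteins, had 6 of 14 probes lower and 1 higher. Counted over labellings in place of orientations, 3 LSM probes were lower in both and 3 higher, against 28.4% and 27.9% of all probes. The LSM median change was 0.0032 within Cy3 and 0.0048 within Cy5, so LSM genes had no settled direction. For Sm ring assembly the labelling counts were 8 lower and 1 higher.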

How the data were processed

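Per the file headers, the authors made the spot intensity values with Agilent Feature Extraction 10.7.3.1 (the labels name 10.5.1.1), with background subtraction and dye normalization within arrays. The deposited log2 values (16065 probes) were quantile-normalized by the authors, who kept probes that were detected and whose labellings agreed. They served to choose probes and as an alternative. Here, processed signals were taken as log2, quantile-normalized over 8 channels and averaged over labellings, and log2 IP/T is IP minus T. These differed from the deposited log2 values by a median of 0.0006, and 16060 probes had a value. Quantile normalization removes overall differences between fractions, and signals near background distort ratios. Symbols came from the probes' accessions through a RefSeq table (GRCh38.p14), which named 11851 deposited probes (73.8%). As the arrays were designed on another build, no coordinates are given.

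With 1 sample per group nothing was tested, and counts stand beside those of all probes. The genes named are, per class, the 3 highest and 3 lowest in EV cells, the 5 largest changes of IP/T each way and the 3 of total RNA (both orientations or labellings of the same sign), and genes with a probe at 2 or more and another at 1 or less. Others were chosen after their values were seen. Members and lists were chosen with earlier results of these data known. Alternatives were a common median, normexp (offset 50) with loess and Aquantile or quantile normalization, the deposited values, detection in all channels, recomputed filters, gene means, arithmetic averaging, single labellings and orientations, SF3 and PRPF added to the snRNP class, and, chosen after seeing the data, leaving out HNRNPA1 with HNRNPA1L2 or HNRNPA3. Python 3.11.15, numpy 2.4.6, pandas 2.3.3, R 4.3.3 and limma 3.58.1 were used. The code was tested on simulated data.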

Additional observations from a re-analysis of the deposited data

Results flagged for a closer look

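A probe of HNRNPH1, an hnRNP that binds G-rich RNA, had an IP/T below 1 in the EV population in both orientations (0.966 and 0.976) and above 1 with the sponge in both (1.102 and 1.43). The change was 0.37 on the log2 scale, and the difference between populations was not tested. Its log2 signals were 10.08 and 10.08 in EV T, 10.05 and 10.03 in EV IP, 10.19 and 10.00 in miR-155-sp T and 10.52 and 10.33 in miR-155-sp IP. The other HNRNPH1 probes had changes of 0.31 and 0.03.

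Splicing gene probes outside the deposited values also gave a signal. A probe of SRSF7 was well above background in 7 channels with a log2 IP/T of -1.43 in the EV population and -1.15 with the sponge. Probes of PRPF39, HNRNPUL2 and SRSF1 were well above background in 4 channels each, with a log2 IP/T in the EV population of 0.24, -0.71 and 0.16. Labellings of 1 sample differed for these probes by up to 2.21 (PRPF39), 1.59 (HNRNPUL2), 1.23 (SRSF7) and 2.37 (SRSF1) on the log2 scale. The remaining probes of SRSF12 and SRSF8 were near background.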

How the results depend on the processing

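No paired analysis was possible because the replicate numbers mark the Cy3 and Cy5 labellings of 1 RNA and nothing was tested. Of the medians and differences followed through these settings, which were those of SR with hnRNP and of SNRP probes, the SNRP change turned its sign. Among other class medians, in single orientations alone, the hnRNP log2 IP/T with the sponge (-0.04) was 0.02 with IP in Cy3, the Sm ring in EV cells (-0.07) was 0.15 with IP in Cy3, and the changes of SF3 (0.04) and SR probes (-0.05) were -0.11 and 0.0066 with IP in Cy5. The SR and hnRNP median log2 IP/T in EV cells (-0.22) was -0.055 with normexp and loess, which moved the median of all probes by 0.18, -0.29 over gene means, -0.14 with IP in Cy3 and -0.28 without HNRNPA1 and HNRNPA1L2. The SNRP median (-0.43) was -0.17 with normexp and loess. Their difference in EV cells (0.21) was 0.056 over gene means, 0.048 to 0.091 with a labelling left out and 0.32 with IP in Cy5. In miR-155-sp cells the difference (0.33) was 0.25 to 0.43 with a labelling left out, 0.24 with IP in Cy3 and 0.25 without HNRNPA1 and HNRNPA1L2. The sponge change of SR and hnRNP probes (0.08) was 0.14 with a common median, 0.046 with normexp and loess and 0.018 to 0.17 with a labelling left out. That of SNRP probes (-0.01) was 0.063, -0.038 and -0.13 to 0.078 in the same order and -0.049 with IP in Cy5. The count of 2 members at a ratio of 2 in EV cells was 0 with both normexp alternatives and over gene means and 1 with detection in all channels or a labelling left out. In miR-155-sp cells it was 1 with each normexp alternative, with detection in all channels and over gene means, 4 with IP in Cy5 and 3 with a labelling left out. Of the 5 members at 0.5 or less in EV cells, HNRNPA0 (log2 IP/T of -1.001) and HNRNPD (-1.0046) sat at the threshold. All 5 stayed at 0.5 or less with a common median. Only PRPF19 (-1.14) did with normexp and loess, and PRPF19 (-1.45) and HNRNPAB (-1.04) with normexp and quantile normalization. The hnRNP count of 35 of 59 probes was 14 of 22 genes over gene means, a count in another unit. Of the 124 probes 12 took the other side of 1 in EV and 24 in miR-155-sp cells with normexp and loess, and 23 changed the sign of their sponge change. Brightness over background limited the ratios of the dimmer probes, and 1 sample per group limits every comparison.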
